A study of Drosophila melanogaster with 3 samples.

Results

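The genes described here encode Mediator, TFIID, the general factors whose symbols begin with TfII, and RNA polymerase II. They were chosen by symbol alone in the Ensembl release 115 annotation of Drosophila melanogaster: MED or Taf followed by a number, or a symbol that begins with TfII or Polr2. The rule found 62 of the 18164 annotated genes, all of them protein-coding. They were 25 Mediator genes, 15 TFIID genes (Taf symbols), 9 TfII genes and 13 RNA polymerase II genes (Polr2 symbols). The data are chromatin immunoprecipitation sequencing peaks for CG31627 in whole white prepupae, the stage at which the larva has just stopped moving and begun to form its puparium. The animals, males and females pooled, came from a transgenic line that stably expresses CG31627 with GFP at its C-terminus. The precipitation was described as using an antibody to GFP, while another label gives the antibody as CG31627. All 3 libraries were biological replicates of this 1 group, so there was no second condition to compare, and shares over all genes served as the background. In whole animals, binding in a few cells and weak binding in many cannot be told apart.

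RNA polymerase II needs a set of partner complexes to start transcription. TFIID, which holds the TATA-binding protein and the TAF subunits, recognises the core promoter. TFIIA and TFIIB join it, TFIIF brings in the polymerase, and TFIIE and TFIIH open the DNA. Mediator bridges DNA-bound activators and this assembly through its head, middle and tail modules, and a separable kinase module regulates it. Most of these genes are active in nearly every cell. The question put to the peaks was at which of their promoters CG31627 was found.

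CG31627 had a promoter summit at 28 of the 62 genes, or 45.2%. The irreproducible discovery rate (IDR) scores how alike peaks rank in replicate lists. A gene is called bound here when a pooled peak summit past the IDR threshold lay within 500 bp of any of its start sites. The call did not need a promoter summit in every library, and 25 of the 28 genes had one in all 3. The lists of single libraries include background, and the same share over all bound protein-coding genes is not given here. The same call was made for 26.4% of the 13945 protein-coding genes and for 22.3% of all genes. Of the Mediator genes 12 of 25 were bound (48%), of the TFIID genes 6 of 15 (40%), of the TfII genes 3 of 9 (33.3%), and of the polymerase genes 7 of 13 (53.8%). All 4 shares were above that of protein-coding genes by this call. When each summit was given only to its nearest gene, the shares of TFIID (13.3%) and TfII (11.1%) fell below the 19.4% of protein-coding genes, while those of Mediator (36%) and the polymerase (38.5%) stayed above it. With 9 to 25 genes in a complex each gene moves the share by several percentage points, and no test was made. Where several summits lay in the window the strongest was kept, and the 28 genes then had 28 distinct peaks. Only MED17 had more than 1 such summit. No group could be ranked above another from these counts.

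**Figure D1:**
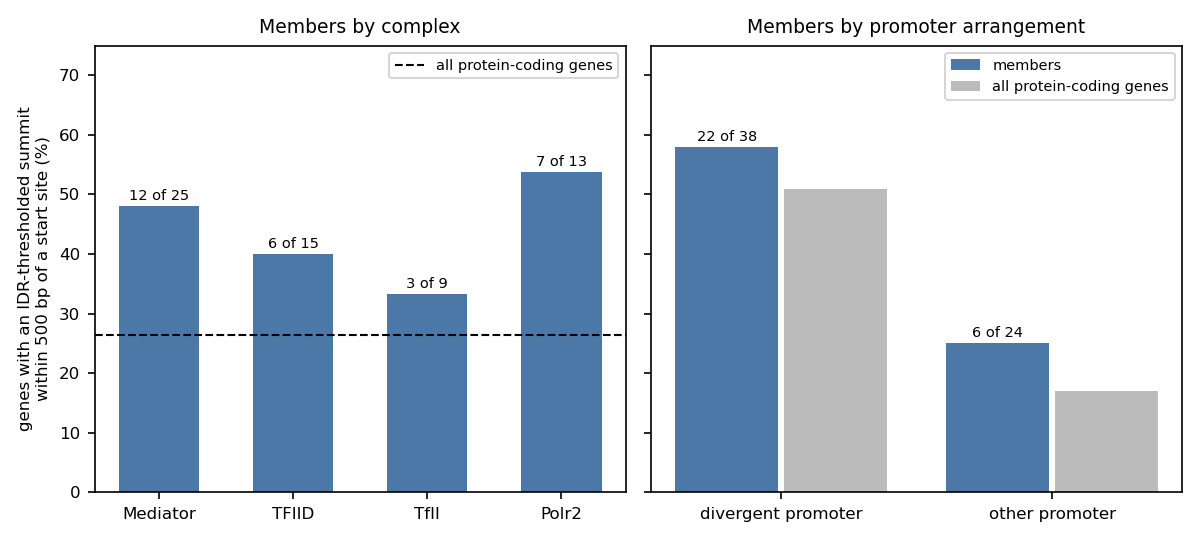
Percentage of genes called bound by the IDR-thresholded summits (500 bp either side of any start site). The left panel shows the 4 groups of genes, with all protein-coding genes as a dashed line at 26.4%. The right panel splits the genes by promoter arrangement, where 22 of 38 genes on divergent promoters and 6 of 24 on other promoters were bound (blue), beside all protein-coding genes of the same arrangement (grey). Counts stand above the blue bars.

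The sequences under the strongest peak of each complex are shown first, because the summit marks where the signal was centred. Each is the 101 bases centred on the summit, read 5′ to 3′ along the strand of the gene, from the Release 6 genome sequence (dm6). Capitals mark runs of 8 or more A or T bases. The windows of the 4 strongest genes were chr3L:654234-654334 (MED30, minus strand), chr3L:16113640-16113740 (Taf4, plus strand), chr3R:27253189-27253289 (TfIIA-L, plus strand) and chr3L:21728771-21728871 (Polr2H, plus strand). Polr2J (chr2L:17410477-17410577, minus strand) and MED6 (chr3R:9767766-9767866, minus strand) are added as the extremes in base composition, with 82.2% and 41.6% A or T.
MED30: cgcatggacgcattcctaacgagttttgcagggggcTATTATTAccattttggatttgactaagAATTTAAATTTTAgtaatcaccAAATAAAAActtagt
Taf4: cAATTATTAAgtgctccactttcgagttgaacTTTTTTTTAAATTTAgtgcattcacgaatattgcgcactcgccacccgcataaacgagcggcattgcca
TfIIA-L: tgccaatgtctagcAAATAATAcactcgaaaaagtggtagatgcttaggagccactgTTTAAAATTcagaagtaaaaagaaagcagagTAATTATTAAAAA
Polr2H: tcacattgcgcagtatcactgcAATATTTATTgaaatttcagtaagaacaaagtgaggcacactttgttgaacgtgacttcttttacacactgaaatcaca
Polr2J: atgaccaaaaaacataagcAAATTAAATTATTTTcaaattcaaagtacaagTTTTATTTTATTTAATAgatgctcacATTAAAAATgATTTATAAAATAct
MED6: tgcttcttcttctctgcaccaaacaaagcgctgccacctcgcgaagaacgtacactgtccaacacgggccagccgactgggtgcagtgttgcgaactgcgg
Runs of A and T stood in 23 of the 28 windows (82.1%), and the longest run had a median of 12 bases. Over all bound protein-coding genes 74.7% of windows held such a run and the median longest run was 10 bases. The longest run was 13 bases at MED30, 15 at Taf4, 17 at Polr2J and 3 at MED6. Such runs were as common at the unbound genes of the set. There, a window placed at the median summit position held a run in 30 of 34 cases (88.2%), against 64% of unbound protein-coding genes.

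Short promoter motifs were searched on both strands around the summits. The BEAF core CGATA, a site of the insulator protein BEAF-32, stood within 50 bp of the summit at 4 of the 28 genes, against 24.9% of bound protein-coding genes. These were MED21 (chr3L:25115949-25116049, minus strand), Polr2F (chr3R:5371694-5371794, plus strand), TfIIA-S (chr3R:23891057-23891157, minus strand) and Taf11 (chr2L:9763419-9763519, minus strand). Their windows are shown with the matches in capitals, and the capitals at the start of the Taf11 window mark Ohler motif 7, a core promoter motif of Drosophila. TATCG is the core read from the other strand.
MED21: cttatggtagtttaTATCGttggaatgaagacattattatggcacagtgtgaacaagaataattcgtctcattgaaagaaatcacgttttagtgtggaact
Polr2F: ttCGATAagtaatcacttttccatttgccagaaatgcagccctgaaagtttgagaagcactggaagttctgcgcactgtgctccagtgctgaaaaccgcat
TfIIA-S: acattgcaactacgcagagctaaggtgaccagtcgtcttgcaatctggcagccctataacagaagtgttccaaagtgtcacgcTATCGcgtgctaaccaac
Taf11: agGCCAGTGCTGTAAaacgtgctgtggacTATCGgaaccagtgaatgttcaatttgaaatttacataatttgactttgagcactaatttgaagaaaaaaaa
The replication-related element TATCGATA, bound by DREF and containing the BEAF core in each match, was within 50 bp of no summit of the 28, against 4.7% of bound protein-coding genes. The TATA box letters TATAAA were near the summit of 7 of 28 genes (25%, against 18.2%). Ohler motif 7 was near those of MED16 and Taf11 (2 of 28, against 5.9%), and the E-box CACGTG near that of 1 gene (against 0.978%). The E-box CAGCTG and Ohler motifs 1 and 6 had no match there, where 4.21%, 1.17% and 0.788% of bound protein-coding genes had one. A match says only that these letters were somewhere in the window, on either strand, and a missing match that they were not.

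The same motifs were also counted from 250 bp before to 50 bp after the canonical start site, where bound and unbound genes can be set side by side. The element TATCGATA stood at 3 of 28 bound and 8 of 34 unbound genes of the set, while over protein-coding genes it stood at 13.8% of bound and 7.22% of unbound promoters. Ohler motif 1, a core promoter motif, likewise matched 2 bound and 7 unbound genes, against 6.44% and 3.61% of protein-coding genes. Ohler motif 7 matched 6 bound and 4 unbound genes, against 18.4% and 5.81%. The BEAF core was as frequent at bound (16 of 28) as at unbound genes (20 of 34), against 55.6% and 43.9%. Over all protein-coding promoters, TATCGATA matched 8.95%, the BEAF core 47%, Ohler motif 1 4.36% and Ohler motif 7 9.14%. The letters TATAAA, anywhere in this window and on either strand, stood at 16 bound and 15 unbound genes (45.3% of all protein-coding promoters). Such matches were not checked for the position of a TATA box. Ohler motif 6 stood at 3 and 4 (2.11% of all). The E-box CAGCTG stood at 2 bound and 6 unbound genes (17.9% of all) and CACGTG at 1 and 1 (4.29% of all). The counts are small, and no difference between bound and unbound genes was tested.

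Among the Mediator genes, MED30 and MED27 carried the strongest peaks. Positions are on dm6 and the signal is the authors' own value per peak, used only within a list. The MED30 peak (FBgn0035149, chr3L:654028-654451) had a signal of 1274 and rank 173 of the 7717 IDR-thresholded peaks. It ranked 158, 161 and 225 in replicates 1, 2 and 3, and its summit lay 195 bp upstream of the start site. MED30 was also the gene with the strongest peak on a divergent promoter, which it shares with Rev1, a gene for a translesion DNA polymerase. The Rev1 start site was nearer to this summit, 79 bp away. MED30 was therefore not called when each summit was given only to its nearest gene. The MED27 peak (FBgn0037359, chr3R:5654801-5655208) had a signal of 1091 and rank 240. Its ranks in replicates 1, 2 and 3 were 335, 255 and 201, and the summit was 132 bp upstream. Both genes stayed among the 335 strongest peaks in every library.

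MED4, MED17 and MED7 followed closely on each other. The MED4 peak (FBgn0035754, chr3L:7250542-7250804) had a signal of 525 and rank 1033, ranks of 1141, 931 and 1036 in replicates 1, 2 and 3, and a summit 157 bp upstream. MED4 belongs to the middle module. The MED17 peak (FBgn0038578, chr3R:18188681-18188974) had a signal of 450 and rank 1342, ranks of 1608, 1064 and 1208, and a summit 236 bp upstream. A weaker IDR-thresholded peak at MED17 (rank 1651, signal 392) had its summit 36 bp upstream. The replicate 3 summit with rank 1208 lay 81 bp upstream, nearer to this weaker peak. MED17 is the scaffold of the head module. MED7, of the middle module, had rank 1360 and ranks of 1588, 1122 and 1333 in the 3 libraries. MED6 of the head (rank 1594), MED16 of the tail (1603), MED31 of the middle (2287) and MED1 of the middle (4423) were also bound, and each was among the 7717 strongest peaks of every library. The bound genes thus came from the head, middle and tail.

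MED21, MED8 and MED23 were near the limit of the calls. MED21 (chr3L:25115797-25116200, signal 121, rank 6642, summit 53 bp upstream) ranked 9387, 4769 and 5815 in replicates 1, 2 and 3. MED8 (chr2R:20326762-20327165, signal 107, rank 7437, summit 158 bp upstream) ranked 13951, 7295 and 4852. MED23 (chr2R:22888899-22889302, signal 103, rank 7714, summit 173 bp downstream) ranked 7560, 6512 and 7974. Each fell outside the 7717 strongest peaks of 1 library, replicate 1 for MED21 and MED8 and replicate 3 for MED23. The other 13 Mediator genes had no IDR-thresholded summit: MED9, MED10, MED11, MED14, MED15, MED18, MED19, MED20, MED22, MED24, MED25, MED26 and MED28. They include MED14, the backbone that joins the modules, MED15, a tail subunit that activators contact, and MED26, which links Mediator to elongation factors.

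In TFIID, Taf4 stood above the others. The Taf4 peak (FBgn0010280, chr3L:16113486-16113845) had a signal of 705 and rank 627, ranks of 596, 709 and 658 in replicates 1, 2 and 3, and a summit 100 bp upstream. Taf4 is a histone-fold subunit of the TFIID core. The peak of Taf2 (FBgn0011836, chr3L:9888653-9888872), whose product contacts DNA near the initiator, had a signal of 350 and rank 1947, ranks of 2283, 1457 and 2222, and a summit 67 bp upstream. The peak of Taf5 (FBgn0010356, chr2R:10879861-10879980), a WD-repeat core subunit, had a signal of 292 and rank 2506, ranks of 3805, 2692 and 1744, and a summit 212 bp upstream. That of Taf7 (FBgn0024909, chr3R:7907310-7907713), the partner of Taf1, had a signal of 216 and rank 3675, ranks of 5003, 2892 and 3145, and a summit 126 bp upstream. Taf13 was also bound (rank 4731, and 5969, 4560 and 4256 in the libraries). These 5 genes were among the strongest peaks of every library.

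Taf11 (chr2L:9763267-9763670, signal 112, rank 7123, summit 207 bp upstream) had no promoter summit in replicate 1 and ranked 7173 and 6632 in replicates 2 and 3. Taf11 and Taf13 encode the partners of a histone-fold pair, and both were bound by the IDR call. The nearest start site was that of und, 20 bp from the Taf11 summit, and that of nesd, 28 bp from the Taf13 summit. Neither gene was called when each summit was given only to its nearest gene. In other pairs the calls were split or absent. Taf4 was bound and its partner Taf12 was not, while neither Taf6 nor Taf9, which pair with each other, had a call. Taf1, the large scaffold subunit, and Taf3, Taf8, Taf10, Taf10b and Taf12L also had none. Taf10 and Taf10b, which encode related subunits, start 45 bp apart on opposite strands and share a single weak peak of the pooled libraries, at rank 19024 with a q value of 0.465.

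By the IDR call, the TfII genes split by factor. The genes for both subunits of TFIIA and the gene for TFIIB were bound. The TfIIA-L peak (FBgn0011289, chr3R:27253113-27253434) had a signal of 492 and rank 1151, ranks of 1473, 949 and 1071 in replicates 1, 2 and 3, and a summit 191 bp upstream. The TfIIA-S peak (FBgn0013347, chr3R:23890998-23891225) had a signal of 449 and rank 1347, ranks of 1388, 1243 and 1465, and a summit 47 bp upstream. The TfIIB peak (FBgn0004915, chr2L:10430875-10431123) had a signal of 354 and rank 1913, ranks of 2476, 1941 and 1652, and a summit 349 bp upstream. All 3 were among the strongest peaks of every library. The nearest start site was that of pll, 57 bp from the TfIIA-L summit, and that of Bug22, 71 bp from the TfIIB summit. Only TfIIA-S was called when each summit was given to its nearest gene. TfIIEalpha, TfIIEbeta, TfIIFalpha, TfIIFbeta, the elongation factor gene TfIIS and TfIIA-S-2, a paralogue of TfIIA-S, were not bound. Pooled peaks with a q value of 0.05 or less added TfIIFalpha and TfIIS. That gave 5 of 9, against 36.7% of protein-coding genes.

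Among the polymerase genes, Polr2H had the strongest peak. That peak (FBgn0037121, chr3L:21728586-21728995) had a signal of 1081 and rank 249, ranks of 406, 130 and 326 in replicates 1, 2 and 3, and a summit 111 bp upstream. Polr2H encodes a subunit shared with RNA polymerases I and III. The peak of Polr2B (FBgn0262955, chr3R:14125500-14125880), whose product forms the catalytic cleft with that of Polr2A, had a signal of 622 and rank 784, ranks of 1074, 731 and 647, and a summit 50 bp upstream. The peak of Polr2F (FBgn0003275, chr3R:5371594-5371863), another shared subunit, had a signal of 519 and rank 1050, ranks of 1584, 772 and 960, and a summit 51 bp upstream. That of Polr2J (FBgn0032634, chr2L:17410356-17410686) had a signal of 431 and rank 1440, ranks of 1715, 1574 and 1094, and a summit 121 bp upstream. These 4 were among the strongest peaks of every library.

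The other 3 bound polymerase genes were weaker and varied between libraries. Polr2I (chr3R:14308660-14309063, signal 145, rank 5670, summit 227 bp upstream) ranked 6609 in replicate 1 and 4761 in replicate 3 and had no promoter summit in replicate 2. Polr2C (chr2L:13833026-13833429, signal 144, rank 5679, summit 109 bp upstream), the assembly partner of Polr2J, ranked 5115 and 9785 in replicates 1 and 3 and also had none in replicate 2. Polr2A (chrX:11570234-11570637, signal 116, rank 6953, summit 110 bp upstream), the gene for the largest subunit with the repeated C-terminal tail, ranked 9003, 9727 and 4117. Only replicate 3 had Polr2A among its 7717 strongest peaks. When only summits that both other libraries supported within 200 bp were kept, 4 polymerase genes were bound without replicate 1, 5 without replicate 2 and 4 without replicate 3, in place of 7. Polr2D and Polr2G, which encode the stalk, had no call, nor did Polr2E, Polr2K, Polr2L and Polr2M.

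**Figure D2:**
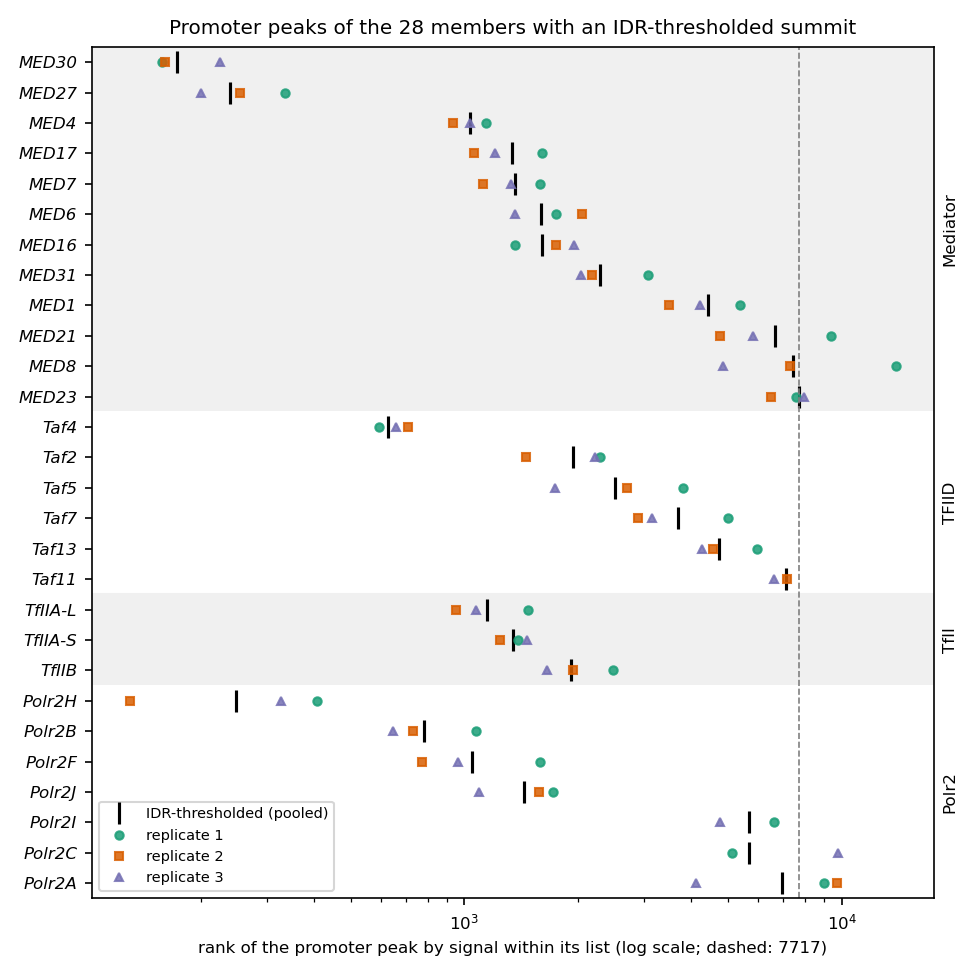
Rank by signal of the promoter peak of each of the 28 bound genes, within the IDR-thresholded list (black bar) and in replicates 1 (circle), 2 (square) and 3 (triangle), on a log axis where left is stronger. The dashed line is rank 7717, the length of the IDR-thresholded list. MED30, MED27 and Polr2H lie at or left of rank 406 in every library, and MED21, MED8, MED23, Polr2C and Polr2A each have a library to the right of the line. A missing symbol means no promoter summit in that library.

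Taken as 1 set, the peaks of the bound genes lay toward the strong end of the list. Their median rank was 1758, against 3049 for all bound protein-coding genes. Of the 28, 15 (53.6%) were among the 1929 strongest IDR-thresholded peaks, against 33.4% of bound protein-coding genes. The median rank was 1598.5 for Mediator, 3090.5 for TFIID, 1347 for TfII and 1440 for the polymerase genes. That of TFIID was thus close to the 3049 of all bound protein-coding genes. Ranks were not compared within promoter arrangement. The libraries ordered the genes alike, with Spearman's rho of 0.955 between replicates 1 and 2 (25 genes), 0.92 between 1 and 3 (27 genes) and 0.947 between 2 and 3 (26 genes), given as a description since the libraries share their source and the genes were all bound in the pooled list.

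With the same number of peaks taken from each library, the counts were close. Among its 7717 strongest peaks, as many as the IDR-thresholded list holds, replicate 1 had a promoter summit at 27 of the 62 genes (43.5%), replicate 2 at 26 (41.9%) and replicate 3 at 29 (46.8%). The mean was 27.3 ± 1.53 genes (SD, n = 3). The same peaks marked 26.4%, 24.2% and 27.5% of protein-coding genes in replicates 1, 2 and 3. With a q value of 0.05 or less in place of a fixed number, the libraries held 17347, 8592 and 10806 peaks and spread further, at 42, 26 and 36 genes with a mean of 34.7 ± 8.08 (SD, n = 3), against 44%, 25.6% and 34.1% of protein-coding genes. Among the strongest peaks, Mediator had 12 genes in each library, TFIID had 5, 7 and 8, TfII had 4, 3 and 3, and the polymerase had 6, 4 and 6. In all 3 libraries at once, 21 of the 62 genes (33.9%) were among the strongest peaks, against 20.7% of protein-coding genes, and every one of the 21 was also bound by the IDR call.

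**Figure D3:**
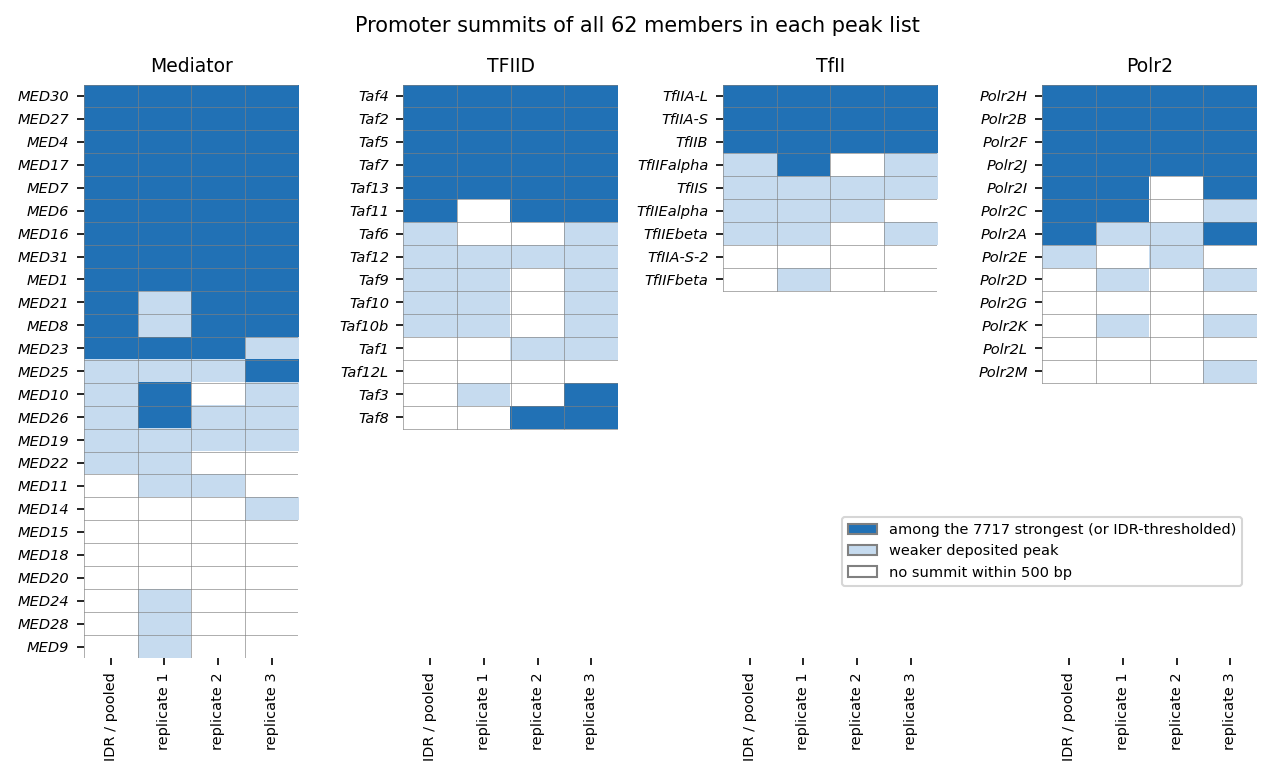
Promoter summits of all 62 genes in the pooled libraries and in each replicate. Dark blue marks an IDR-thresholded peak (first column of each panel) or one of the 7717 strongest peaks of a replicate. Light blue marks a weaker deposited peak, background included, and white marks no summit within 500 bp. In all 4 columns 21 genes are dark, and 7 genes (MED15, MED18, MED20, Taf12L, TfIIA-S-2, Polr2G and Polr2L) are white throughout.

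MED10, MED25, MED26, Taf3, Taf8 and TfIIFalpha were unbound but among the strongest peaks of at least 1 library, and at 4 of them the pooled peak fell just below the last IDR-thresholded one. MED25 ranked 10567, 10687 and 5410 in replicates 1, 2 and 3, and its pooled peak ranked 7984 (signal 99.3, 321 bp upstream). The summit lay 90 bp upstream in replicate 1, but 327 and 325 bp upstream in replicates 2 and 3. TfIIFalpha ranked 5976 in replicate 1 and 14107 in replicate 3, had no summit in replicate 2, and had a pooled rank of 8092 (signal 97.8, 140 bp upstream). MED10 ranked 5901 in replicate 1 and 12523 in replicate 3, was absent from replicate 2, and had a pooled rank of 8117 (signal 97.5, 8 bp upstream). MED26, on chromosome 4, ranked 5889, 8759 and 9697, with a pooled rank of 8637 (signal 89.9, 485 bp downstream). In replicate 1 its summit lay 84 bp upstream of a start site, and in replicates 2 and 3 it lay 450 and 499 bp downstream of one. The strong peak of replicate 1 at MED26 was thus not the pooled one. MED23, at rank 7714 with a signal of 103, was the last gene of the set inside the list.

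Taf8 and Taf3 differed from those 4. Taf8, a histone-fold partner of Taf10, ranked 4744 in replicate 2, with its summit 64 bp upstream, and 5300 in replicate 3, with its summit 74 bp upstream. It had no promoter summit in replicate 1, and the nearest pooled summit was 7074 bp away. Taf3 ranked 6259 in replicate 3 and 9532 in replicate 1, was absent from replicate 2, and had no pooled summit nearer than 15989 bp. Few strong peaks of a library lacked a pooled summit within 500 bp: 0.998% of the 7717 strongest in replicate 1, 0.596% in replicate 2 and 1.15% in replicate 3. The reason was not tested.

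When every deposited peak of the pooled libraries was counted, background included, 43 of the 62 genes (69.4%) had a promoter summit, against 48.5% of protein-coding genes. This added 15 genes to the 28, of which 8 had a peak with a q value of 0.05 or less. The latter were MED10, MED19, MED25, MED26, Taf6, Taf12, TfIIFalpha and TfIIS. The remaining 7 were MED22, Taf9, Taf10, Taf10b, TfIIEalpha, TfIIEbeta and Polr2E. From the unbound genes the nearest IDR-thresholded summit was at a median of 4955.5 bp. The nearest was at MED19, 541 bp away, followed by MED15 at 546 bp and TfIIS at 797 bp, and the farthest was at Polr2L, 51500 bp away.

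The summits sat just upstream of the start sites. Of the 28 summits 27 were upstream (89% of bound protein-coding genes had theirs upstream), and only that of MED23 was downstream. The median position was 121 bp upstream, against 126 bp for bound protein-coding genes. Between the start site and 150 bp upstream lay 17 of the 28 summits, against 46.7% of bound protein-coding genes. Positions in each library were taken from the start site nearest to the IDR-thresholded summit, for the strongest summit of that library. Over the 25 genes with a promoter summit in all 3 libraries, the SD had a median of 15.1 bp, and it was under 25 bp for 18 of them. MED31 had the smallest SD, 4.36 bp, with summits 123, 116 and 115 bp upstream in replicates 1, 2 and 3. MED23 had the largest, 90.5 bp, with summits 7 bp upstream in replicate 1 and 174 and 86 bp downstream in replicates 2 and 3. MED17, which had a second IDR-thresholded peak in its window, followed with an SD of 73.5 bp and summits 221, 190 and 81 bp upstream. Taf7, with an SD of 65.3 bp, had summits 153, 157 and 42 bp upstream of the same start site.

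**Figure D4:**
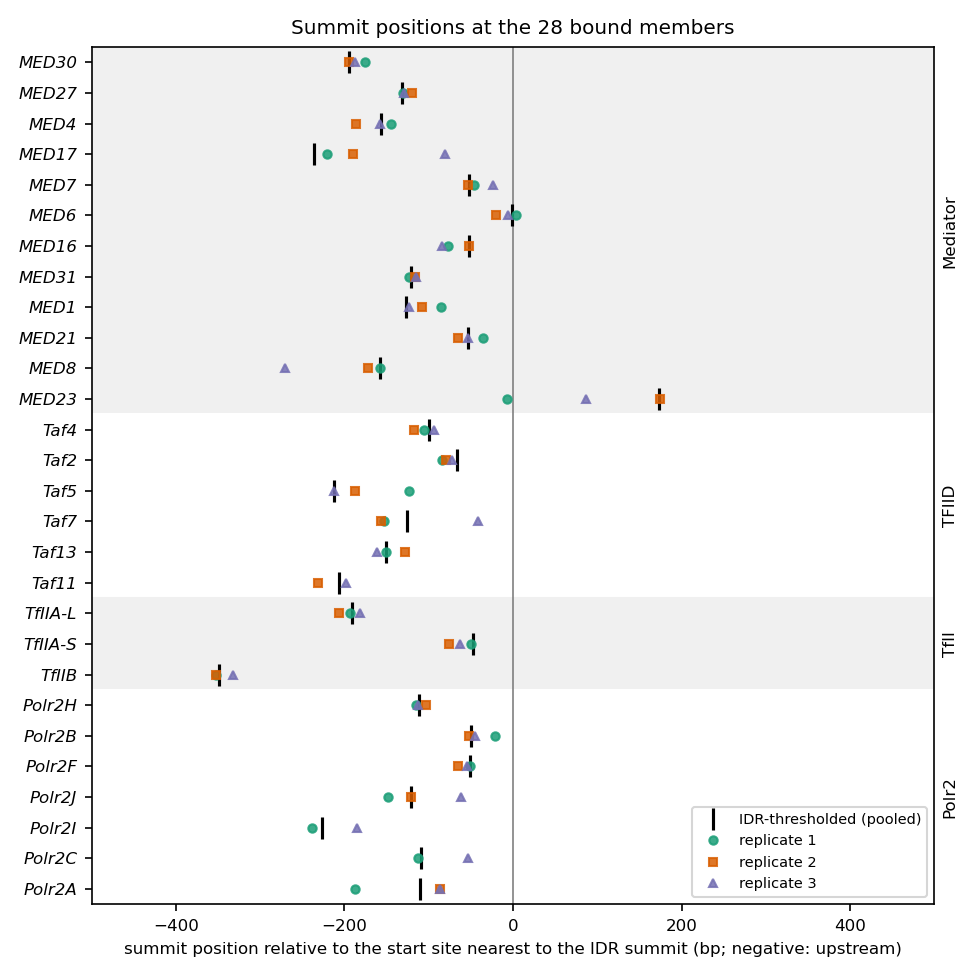
Position of the promoter summit of each of the 28 bound genes relative to the gene's start site nearest to the IDR-thresholded summit, in bp along the gene, with negative values upstream. The black bar is the IDR-thresholded summit, and the circle, square and triangle are replicates 1, 2 and 3. All summits but that of MED23 are upstream in the IDR-thresholded list, TfIIB lies farthest out at 349 bp, and the libraries place the MED23 and MED6 summits on both sides of the start site.

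These genes often shared a promoter with a neighbour on the other strand. A gene was counted as divergent when a protein-coding gene on the opposite strand started within 500 bp upstream of it. Of the 62 genes 38 (61.3%) were divergent, against 27.4% of protein-coding genes. Of the divergent genes 22 of 38 (57.9%) were bound, against 51% of divergent protein-coding genes. Of the others 6 of 24 (25%) were bound, against 17.1%. Compared within each arrangement, the set was therefore closer to the background than in the overall count of 45.2% against 26.4%. The bound genes without a divergent partner were MED4, MED1, MED21, Taf4, TfIIA-S and Polr2F. Divergent genes made up 17 of the Mediator genes (9 bound), 9 of TFIID (5 bound), 4 of TfII (2 bound) and 8 of the polymerase genes (6 bound).

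On the 22 bound divergent promoters, 19 summits lay between the paired start sites. The exceptions were MED23, Taf13 and Taf11. The same share over all bound divergent protein-coding genes is not given here, so the count is not a trait particular to this set. Of all bound protein-coding genes, 89% had an upstream summit. Some partners have known roles: Polr2I is paired with su(Hw), which encodes an insulator protein, MED7 with Cap-H2, a condensin subunit gene, and TfIIA-L with pll, the kinase gene of the Toll pathway. The gap between the starts ranged from 19 bp at MED6 and Naa80 to 500 bp at Polr2I and su(Hw). A summit between paired starts cannot be assigned to either gene. At 12 of the 28 bound genes the start site nearest to the strongest summit was that of another gene, for example CG9775, 4 bp from the MED31 summit, CalpB, 12 bp from the Taf2 summit, CG11247, 15 bp from the Polr2H summit, and asRNA:CR43470, 44 bp from the MED4 summit. At the other 16 of the 28 it was the gene's own, against 71.1% of bound protein-coding genes. A count of nearest genes over all summits gave 17 of 62 (27.4%), since the weaker summit at MED17 lay nearest to MED17 itself. The share compares with 19.4% of protein-coding genes. The 17 were 2 genes of TFIID, 1 of TfII, 5 of the polymerase and 9 of Mediator.

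The bound genes were spread over the large chromosome arms. They were 5 of 11 on 2L, 4 of 7 on 2R, 7 of 15 on 3L, 11 of 21 on 3R and 1 of 6 on X. Neither gene on chromosome 4, MED26 or Taf3, was bound. Of protein-coding genes, between 24.8% (2R) and 28.8% (chromosome 4) were bound on each arm. Polr2A was the only bound gene on X.

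Genes of the same machinery with other symbols were looked up from lists of gene symbols, beside the same 26.4% of protein-coding genes. In the kinase module of Mediator, skd (Med13, rank 1303) and Cdk8 (rank 5905) were bound and their partners kto and CycC were not. Of the genes for the TATA-binding protein and its relatives, Trf2 was bound (rank 4028) and Tbp and Trf were not. Trf shares a divergent promoter with MED20, 47 bp apart, and neither gene had a promoter summit in the pooled list. None of 4 genes for testis-specific TAFs (can, mia, nht and sa) was bound. A further symbol of that list, rye, matched no gene symbol of the annotation and was not counted there.

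TFIIH, which opens promoter DNA and phosphorylates the polymerase, had 8 of 10 genes bound (80%). Ssl1, a core subunit gene, ranked 4 in the IDR-thresholded list and 6, 5 and 6 in replicates 1, 2 and 3, above all 62 genes of the set. The others were mrn (rank 1359), Tfb5 (3231), Xpd (3646), Tfb4 (4021), Cdk7 (4313), CycH (4744) and Tfb1 (5378). Mat1 and hay, the latter encoding the XPB helicase, were not bound. Of 16 genes for pausing and elongation factors 10 were bound (62.5%). These were bin3 (rank 628), Nelf-E (728), Larp7 (1901), TH1 (2006), Spt6 (2035), lilli (2152), Nelf-A (3317), spt4 (3851), NELF-B (4191) and ear (5841). Bin3 and Larp7 belong to the 7SK particle, which holds the kinase P-TEFb inactive, and Nelf-A, NELF-B, Nelf-E and TH1 encode the subunits of NELF, which pauses the polymerase. Cdk9 and CycT, the genes of P-TEFb itself, had no call, nor did Spt5, Hexim, Eaf and Su(Tpl).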

How the data were processed

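Peaks of CG31627 with GFP at its C-terminus were deposited for 3 libraries of white prepupae, as a list per library, a pooled list and an IDR-thresholded list. The signal per peak is the authors' deposited value, on a scale that is not stated in the sources used. The q value is deposited as −log10 per peak. The single-library and pooled lists deliberately include background, because IDR starts from them. For the aligner and peak caller, nothing is given in the sources used here. Controls were not analysed here, and without read counts the depth is unknown. Nothing says whether the biological replicates were raised separately, so the SD over libraries may be partly technical.

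Summits on dm6 were compared with start sites of Ensembl release 115, on 6 chromosome arms and without transposable elements, using Python 3.11.15, pandas 2.3.3 and numpy 2.4.6. For each library the 7717 strongest peaks were used, and 1 peak on chromosome Y was left out. No test was made, since there is 1 group. The assignment was tested on planted summits. The genes, lists and measures were chosen with earlier results of these data known. Full values are given for the 4 strongest genes of each complex and for those whose call differed between lists. Alternatives changed the window, threshold, start sites, assignment and replicates.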

Additional observations from a re-analysis of the deposited data

How the results depend on the processing

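The count of 28 bound genes ranged from 19 to 36 when the window, threshold or start sites changed or peak intervals were used. With each replicate set aside in turn, the IDR-thresholded summits were kept only where the strongest peaks of both other libraries supported them within 200 bp. This gave 22 to 24 genes. The peaks were not called again without the replicate, and the count of 28 did not need such support. Counting only the gene nearest to each summit gave 17. In each of these settings the share of all 62 genes was above that of protein-coding genes. The same nearest-gene count gave 2 for TFIID and 1 for TfII, shares below that of protein-coding genes, and pooled peaks with a q value of 0.05 or less gave 5 for TfII. For the polymerase genes, the 3858 strongest IDR-thresholded peaks gave 4. Support by the other libraries gave 4 with replicate 1 or 3 set aside and 5 with replicate 2 set aside. Over all genes the 3858 strongest peaks gave 13.1%. The mean over libraries ranged from 19 to 34.7 (SD 8.08 at the latter, with a q value of 0.05 or less), and from 26.5 to 28 without a replicate. The cause of these shifts was not tested. Of 67 alternative values, 59 stayed within 1.5 times the main one. Depth is unknown, so a missing summit does not show that a promoter is free of CG31627. No paired analysis was possible because all libraries belong to 1 group.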

Other observations

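Coactivator genes outside the set were also looked up, beside the 26.4% of protein-coding genes with a promoter summit. Of 16 genes of SAGA, a coactivator that shares TAF subunits with TFIID, 7 were bound (43.8%). Gcn5, which encodes its histone acetyltransferase, ranked 210 in the IDR-thresholded list and 267, 282 and 140 in replicates 1, 2 and 3. The others were Ada3 (rank 1177), Atxn7 (2180), e(y)2 (2511), wda (3949), Ada2b (4700) and Sgf29 (5293).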
